A study of Mus musculus with 16 samples.

Results

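Leukocytes that carried no transcript of complement C1q were examined in single-cell RNA sequencing data of diabetic and control mouse kidneys. A barcode was kept when it had 200 to 7000 detected genes and at most 20% of its unique molecular identifiers (UMIs, each standing for 1 captured RNA molecule) from mitochondrial genes. Of the kept barcodes, members had at least 1 UMI of Ptprc, which encodes the pan-leukocyte protein CD45, and at least 2 UMIs summed over the lineage genes Cd3d, Cd3e, Cd3g, Nkg7, Cd79a, Cd79b, Ms4a1, S100a8, S100a9 and Tyrobp. They had no UMI of C1qa, C1qb or C1qc, which mark resident macrophages, nor of Cubn, Epcam, Pecam1 or Pdgfrb, which mark tubule, epithelial, endothelial and mural cells. This left 476 of 53253 kept barcodes, themselves taken from 116439 deposited barcodes, with 205 members in control and 271 in diabetic libraries. The members were thus chosen by the UMI values of 18 genes, whose levels are given as a description without a test.

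The mice were BTBR ob/ob animals, which lack functional leptin and become obese and diabetic (DN mice), and BTBR +/+ animals without that mutation (control mice). Males and females were sampled at 6 and at 12 weeks of age, giving 8 groups of 2 mice and 16 libraries with 1 mouse each. According to the study's methods both genotypes also carried a podocyte reporter, a fluorescent switch at the Rosa locus turned on by a Cre recombinase under a podocyte promoter. As DN mice differ from controls in leptin as well as in body weight and blood glucose, these cannot be told apart. Kidneys without papilla were partly depleted of proximal tubules on a Percoll gradient, so the suspension was labelled as glomerular cells but also held tubule and interstitial cells. No step selected leukocytes.

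T cells recognise antigen through a receptor with CD3 and divide into helper (CD4) and cytotoxic (CD8) lineages, whereas natural killer (NK) cells kill without that receptor. B cells carry and secrete immunoglobulin. Neutrophils and monocytes are short-lived myeloid cells that enter tissue from blood: classical monocytes bear Ly6C and the chemokine receptor CCR2, nonclassical ones patrol vessels, and both, like dendritic cells, differ from the C1q-rich macrophages that reside in the kidney. As the organs were not stated to be flushed, cells in vessels and in tissue cannot be told apart here.

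The first replicate of each female group, 4 libraries in all, was made with a different barcode list and held 10510855 to 21728793 UMIs, against 83410397 to 125551519 in the other 12. They contributed 44 members with library medians of 1710.5 to 2435.5 UMIs, and the deep libraries 432 members with medians of 3600 to 6336.5. Members had a median of 4260 UMIs, 1674.5 genes and 4.27% mitochondrial UMIs, where kept barcodes had 4520 UMIs and 8.59%. The second control male library at 6 weeks stood apart, with a median of 623 UMIs over 5803 kept barcodes and the lowest member share. Although 11 members had a barcode sequence that also occurred in another library, no barcode was a member in more than 1 library. Xist and Ddx3y matched the labelled sex in all 16 libraries.

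Of 2662 kept barcodes with a Ptprc UMI, 998 had at least 2 lineage UMIs. Of these, 600 had no UMI of Cubn, Epcam, Pecam1 or Pdgfrb, and 476 of those had no C1q UMI. Just inside the threshold, 19 members had exactly 2 lineage UMIs and 66 had exactly 1 Ptprc UMI. Just outside it, 15 barcodes had 1 lineage UMI, 168 had none, 1 had a single C1q UMI and 123 had 2 or more. The median member had 13 lineage UMIs and 6 Ptprc UMIs.

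Members were divided by the rule's own genes into 5 classes. Other myeloid cells, led by Tyrobp and with under 2 UMIs of S100a8 and S100a9 together, were the largest class with 255 cells, or 53.6% of members (exact binomial 95% interval 49.0 to 58.1, counting error only). T-like cells with a Cd3 UMI numbered 149 (31.3%), neutrophil-like cells 40 (8.40%), B-like cells 28 (5.88%) and NK-like cells 4 (0.840%). The share of T-like cells with Cd3e was 84.6%, of B-like cells with Cd79a 96.4% and of neutrophil-like cells with S100a8 100%, values that the assignment itself fixed. T-like and other myeloid cells were present in all 16 libraries, neutrophil-like cells in 13, B-like cells in 12 and NK-like cells in 3. In 5 members UMIs of more than 1 lineage were found, and no member was left unresolved.

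Genes outside the rule followed the class names. Among T-like cells 94.0% had a UMI of Trbc2 and 80.5% of Trac, the constant chains of the T cell receptor, and 62.4% had Il7r, the interleukin-7 receptor that maintains resting T cells. In the 21312 tubule cells without Ptprc, used as a background for free RNA, the same shares were 0.0516%, 6.38% and 0.0328%, although tubule cells were deeper (median 9874 UMIs, against 3691 in T-like cells). Each of 13 listed T cell genes outside the rule was found in over 20% of T-like cells. B-like cells had Igkc, the kappa light chain, in 96.4% and Ighd, the IgD heavy chain of mature naive cells, in 85.7% (median 2811.5 UMIs; tubule 1.10% and 0.0328%). On the CPM scale, a gene's UMIs over all UMIs of the same cells scaled to 1 fixed total, Igkc was at 140933 in B-like cells and 8.99 in the other members. Of its 16698 UMIs in B-like cells, 15875 were in 3 cells described below, and the other 25 B-like cells were at 12522 CPM.

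Neutrophil-like cells had Csf3r, the G-CSF receptor, in 97.5% and Cxcr2, the chemokine receptor that calls neutrophils out of marrow, in 92.5%. Retnlg, a granulocyte resistin homologue, was found in 85.0% of them at 11063 CPM, and in 0.00469% of tubule cells. Il1b, the inflammatory cytokine, was found in 38 of 40 neutrophil-like and 30.6% of other myeloid cells. This class was shallow, with a median of 1885 UMIs, and 10 of 10 listed neutrophil genes were nevertheless found in over 20% of its cells. Lcn2, which injured tubules also make, was the listed gene with the highest tubule share (24 of 40 neutrophil-like cells, 19.5% of tubule cells). The 4 NK-like cells all had Ncr1, the activating receptor NKp46, and Prf1, the pore-forming protein of cytotoxic granules, while Klrb1c and Klra8 had no UMI in any member.

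**Figure D1:**
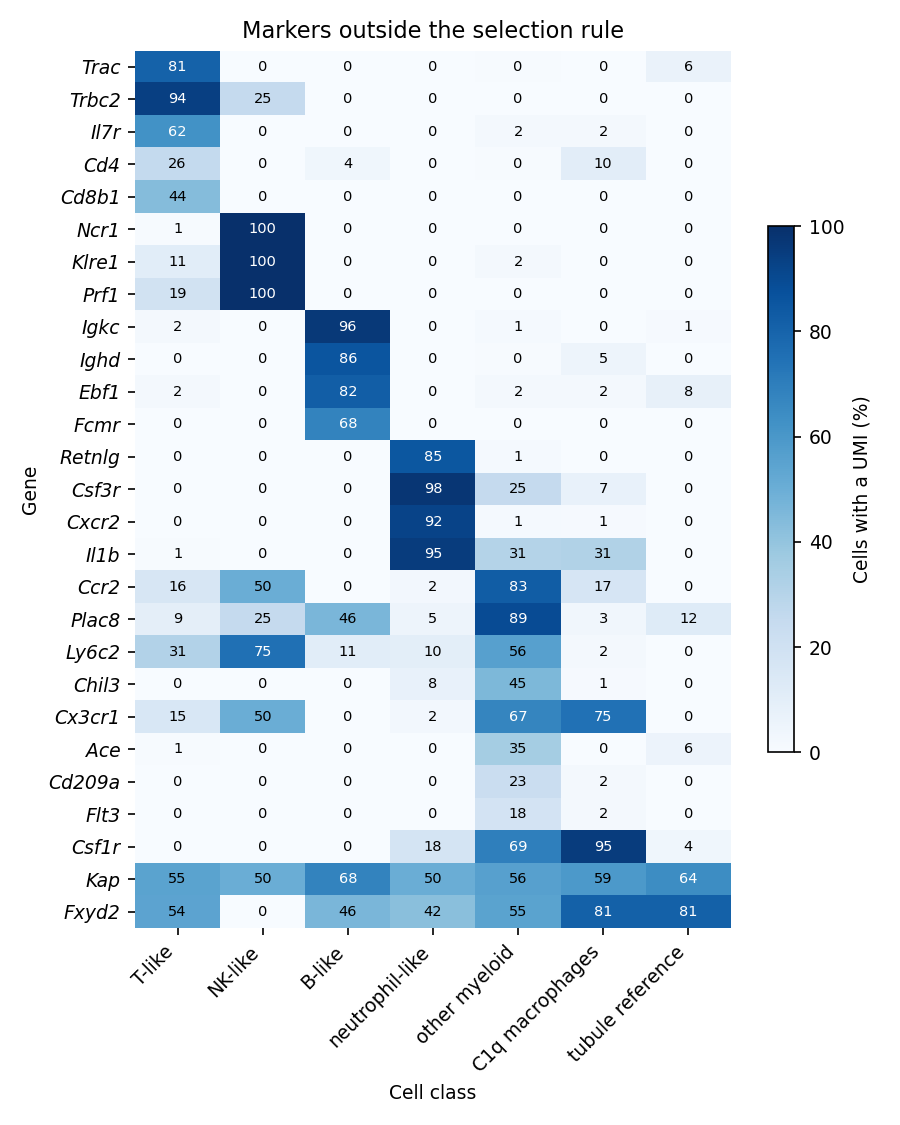
Heat map of the share of cells with a UMI (%, colour and printed number) for 27 genes that the selection rule did not use (rows) in the 5 member classes, in C1q macrophages and in the tubule reference cells (columns). Trbc2 is highest in the T-like column (94.0%), Igkc and Ighd in the B-like column (96.4% and 85.7%) and Ccr2 in the other myeloid column (82.7%), whereas the tubule genes Kap and Fxyd2 are spread over nearly all columns.

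The other myeloid class was mainly of monocyte type. Plac8 was found in 89.4% and Ccr2 in 82.7% of its cells, and the coagulation factor gene F13a1 and the fibronectin gene Fn1 in 50.2% and 51.0%. In the 127 C1q macrophages of the same kidneys (median 4820 UMIs; 5601 in other myeloid cells), Ccr2 was found in 16.5%, Plac8 in 3.15% and F13a1 in 18.9%. The macrophage genes Adgre1, Mrc1 and Ms4a7 were found in 18.8%, 6.67% and 5.88% of other myeloid cells and in 69.3%, 64.6% and 70.9% of the C1q macrophages. Since C1q itself divided these groups, the contrast is a description.

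By the marker list with the most UMIs, 192 of the 255 other myeloid cells were of classical monocyte type, 23 nonclassical and 23 dendritic, 10 had most UMIs in the macrophage list and 7 were undecided. The shares that follow are of genes in those lists and were largely set by the assignment. Cells of classical type had Ly6c2 in 71.9%. Cells of nonclassical type had Ace in 91.3% and Treml4 in 69.6%, and cells of dendritic type had Cd209a, a lectin of monocyte-derived dendritic cells, in 87.0% and Itgax in 69.6%. The 10 cells with most UMIs in the macrophage list were mixed, with the macrophage genes Apoe in 70%, Cd81 in 60%, Ms4a7 and Adgre1 in 30% and Mrc1 in 10% of them, and the nonclassical genes Ace and Treml4 in 60%. Xcr1 and Clec9a, which mark cross-presenting dendritic cells, were rare over the class, at 1.96% and 3.92%. Cells of classical type made up 68.9% (58.3 to 78.2) of other myeloid cells in control and 78.8% (71.8 to 84.8) in DN libraries, and nonclassical cells 15.6% (8.77 to 24.7) and 5.45% (2.52 to 10.1). These intervals pool cells of several mice and cover counting error only, and the list contains Chil3, described below.

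Among T-like cells, 36 had Cd4 but no Cd8 UMI (24.2%), 65 had Cd8a or Cd8b1 but no Cd4 (43.6%), 2 had both and 46 had neither. Of the Cd8 cells, 59 of 65 had Nkg7, a cytotoxic granule protein that the rule also used, 34 had the chemokine gene Ccl5 and 21 the granzyme gene Gzma. Of the Cd4 cells, 16 of 36 had Icos, a costimulatory receptor, and 0 of 36 had Gzmb, which allows up to 8.33% of cells with a UMI and sets no limit on cells that express the gene. Foxp3, the regulatory T cell factor, was found in 11 of 149 T-like cells (tubule 0.0188%). Trdc, the constant chain of gamma delta T cells, was found in 1 T-like cell and in 2 of the 4 NK-like cells.

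B-like cells were largely of naive type with kappa light chains. Igkc exceeded the summed lambda genes in 26 of 28 cells and lambda exceeded kappa in 0, and 24 cells had both Ighm and Ighd. In contrast, 3 cells had at least 10 UMIs of Jchain, which joins secreted IgA and IgM. These held 192, 228 and 1172 Jchain UMIs with 277, 688 and 3156 UMIs of Igha, the IgA heavy chain, and 0 of Ighm. Jchain and Igha together are known from plasma cells that make IgA. They came from a DN male library at 12 weeks, a control female library at 6 weeks and a control female library at 12 weeks, respectively. No library reached 10 B-like cells, so B-like genes were not fitted between genotypes.

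Members made up 0.739% ± 0.344 of kept barcodes in control libraries (SD, n = 8; lowest 0.258%, median 0.736%, highest 1.21%). In DN libraries they made up 1.04% ± 0.540 (n = 8; 0.485%, 0.998%, 1.96%). The ranges overlapped widely, DN was higher in 3 of 4 combinations of sex and age, and the difference was not larger than the spread between mice (exact two-sided permutation test within sex and age, p = 0.171, adjusted 0.514 over 18 share tests). The DN mean was higher by 0.306 percentage points, and by 0.175 without the first DN male library at 12 weeks, which had the highest share (exact permutation p = 0.403).

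**Figure D2:**
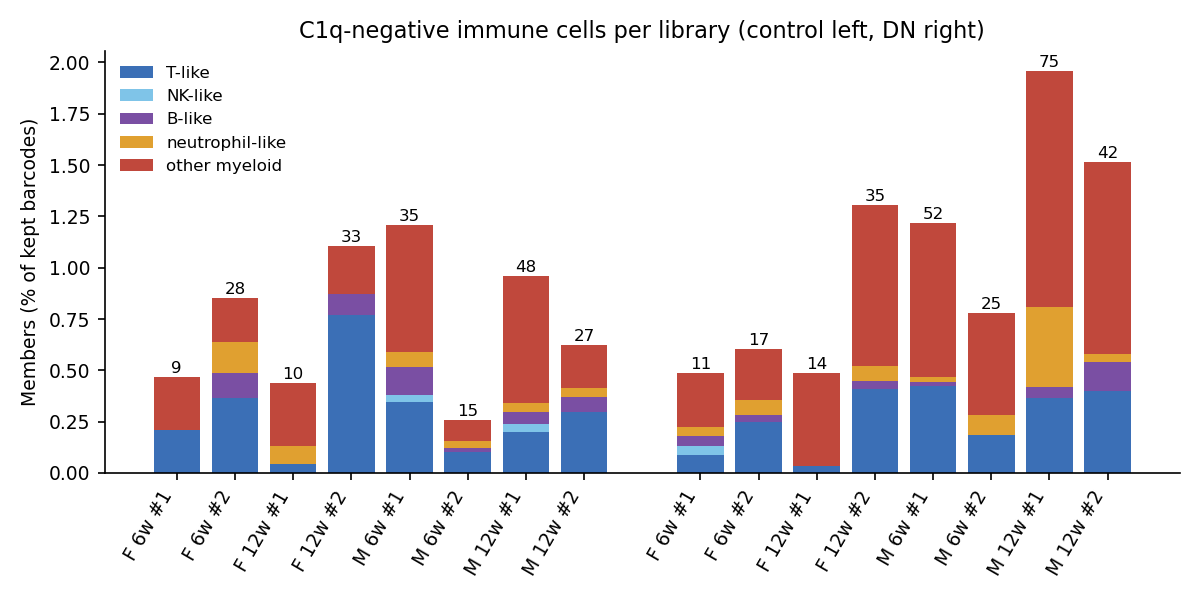
Members as a share of kept barcodes (%, y axis) in each of the 16 libraries (x axis, F and M for sex, w for weeks, # for replicate), control on the left and DN on the right. Colours stack the 5 classes and the number above each bar counts the members, from 9 to 75. The first DN male library at 12 weeks is the tallest bar at 1.96%, and the other myeloid class forms its largest part.

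Of the 5 classes, other myeloid cells differed most between genotypes. Their share was lowest at 0.103%, median 0.247% and highest 0.622% in the 8 control libraries (mean 0.321% ± 0.194), and 0.249%, 0.624% and 1.15% in the 8 DN libraries (mean 0.636% ± 0.323). The ranges overlapped, yet the DN mean was higher in 4 of 4 combinations of sex and age, by 0.315 percentage points in all. For other myeloid cells the exact permutation test gave p = 0.0123, which did not pass adjustment over 18 share tests (adjusted p = 0.208). Without the first DN male library at 12 weeks, which had the highest share, the difference was 0.242 (exact p = 0.0648), and without the second it was 0.272 (exact p = 0.0602). In the 12 deep libraries it was 0.395 (exact p = 0.0417, adjusted 0.417), and with cells thinned to 1000 UMIs it was 0.188 (exact p = 0.0540). With up to 50% mitochondrial UMIs allowed it was 0.20 (exact p = 0.00463, adjusted 0.0833). Without the exclusion of barcodes with UMIs of other lineages it was 0.586 (exact p = 0.0216, adjusted 0.194), and as a share of barcodes without a UMI of Cubn or Epcam 0.577 (exact p = 0.0170, adjusted 0.181). With the replicate number as a block, DN was higher in every same-numbered pair and exact p was 0.00781, the lowest that this test can give. Its adjusted p of 0.141 could therefore not pass for a single result among 18 tests. In the 12 deep libraries too, the permutations were too few for a single result to pass adjustment. C1q macrophages, the myeloid cells that the rule set aside, made up 0.139% ± 0.146 of kept barcodes in control and 0.347% ± 0.168 in DN libraries (n = 8 each), also higher in 4 of 4 combinations, a difference that was not tested.

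By age, the share of other myeloid cells was 0.299% ± 0.225 in control and 0.441% ± 0.235 in DN libraries at 6 weeks, and 0.342% ± 0.189 and 0.830% ± 0.295 at 12 weeks (n = 4 each). The change of the genotype difference with age was not tested. Pooled over genotypes, the class made up 0.370% ± 0.226 at 6 weeks and 0.586% ± 0.347 at 12 weeks (exact permutation p = 0.0556, adjusted 0.333). This difference of 0.216 percentage points was 0.136 without the first DN male library at 12 weeks (exact permutation p = 0.258). Females had 0.345% ± 0.192 and males 0.611% ± 0.348 (exact permutation p = 0.0231, adjusted 0.208). All 4 shallow libraries were female, and in the 12 deep libraries the exact permutation p was 0.0988.

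**Figure D3:**
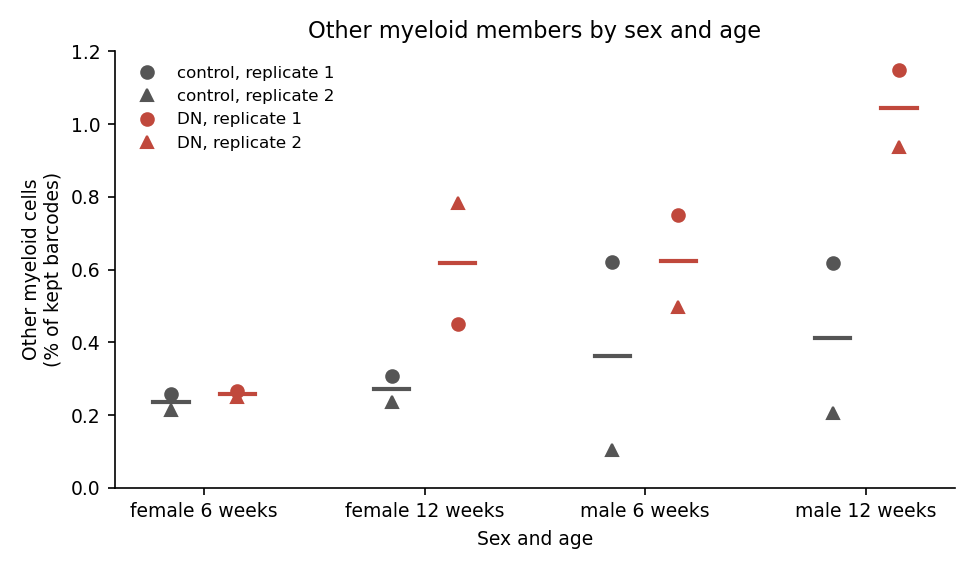
Share of other myeloid cells among kept barcodes (%, y axis) by sex and age (x axis), with 1 point per library, control in grey and DN in red, replicate 1 as circles and replicate 2 as triangles, and a bar at each group mean of 2 libraries. The groups meet at 6 weeks in females and lie farthest apart at 12 weeks, where the DN male libraries reach 0.938% and 1.15%.

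T-like cells made up 0.292% ± 0.224 of kept barcodes in control and 0.269% ± 0.153 in DN libraries (exact permutation p = 0.833). The highest control value was 0.771%, in the second female library at 12 weeks, and the other control libraries lay at 0.0439% to 0.365%. B-like cells made up 0.0633% ± 0.0542 and 0.0422% ± 0.0455 (exact permutation p = 0.451), and neutrophil-like cells 0.0536% ± 0.0499 and 0.0919% ± 0.125 (exact permutation p = 0.596). In 1 DN male library at 12 weeks 15 of the 40 neutrophil-like cells were found, at 0.392%, against 0% to 0.0933% in the other DN libraries. None of the 18 tests of class shares by genotype, sex and age passed adjustment (adjusted p of at least 0.208).

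Shares among members do not have tubule cells in their denominator. The exclusion of barcodes with UMIs of other lineages, which took 998 barcodes to 600, can still tie them to tubule RNA in the background. On that scale other myeloid cells made up 45.1% ± 18.1 of members in control and 61.8% ± 14.4 in DN libraries (n = 8 each), and T-like cells 38.1% ± 18.3 and 25.2% ± 10.7. Exact permutation tests gave p = 0.0725 and p = 0.137, each with an adjusted p of 0.291 over 5 tests. The T-like difference of -12.9 percentage points was -8.38 without the second control female library at 12 weeks (exact permutation p = 0.187). With the replicate number as a block, the exact p for other myeloid cells was 0.0313 and the adjusted p 0.156.

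For gene expression, the UMIs of all members were summed per library, and 7 control and 8 DN libraries with at least 10 members were compared. Of 3551 genes tested, 2 were called at an adjusted p under 0.05 (0.0563%; edgeR's quasi-likelihood test with Benjamini-Hochberg adjustment), 1 higher and 1 lower. At an unadjusted p under 0.05 there were 173 genes, and DESeq2 called 6. The called genes were Chil3 and Cxcl10. With the replicate number as a block, 31 of 5693 genes were called (0.545%), 15 higher (0.263%) and 16 lower (0.281%), and with the class makeup of each library as terms none of 4247 was called, where 133 genes had an unadjusted p under 0.05.

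Chil3 encodes a chitinase-like protein secreted by monocytes and macrophages (Ym1), and lies on chromosome 3 at 106147554 to 106167564, minus strand (GRCm38). In the 7 control libraries its level was 0 CPM at the lowest, 105 at the median and 504 at the highest, from 153 UMIs. In the 8 DN libraries it was 473, 922 and 1895 CPM, from 1558 UMIs. The ranges overlapped, the highest control being a male library at 6 weeks, but each DN library was above both control libraries of its sex and age, the shallow ones included. The fitted log2 difference was 3.02 ± 0.42 (SE), with edgeR's adjusted p of 0.00196. It was called in 25 of 26 alternative fits, the exception being the fit with class makeup as terms (log2 difference 2.34, adjusted p = 0.156).

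Chil3 UMIs lay almost entirely in other myeloid cells. Of 1712 UMIs in members, 1664 were in other myeloid cells and 48 in 3 neutrophil-like cells, 46 of these in 1 cell. It was found in 0 of 149 T-like and 0 of 28 B-like cells, which allows up to 2.01% and 10.7% of cells with a UMI, and its level in tubule cells did not exceed 2.93 CPM in any library. C1q macrophages held 11 Chil3 UMIs, all in the first DN male library at 12 weeks (66.9 CPM). Chil4, a close paralogue, had no UMI in members of any library.

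In other myeloid cells alone, 26 of 90 control cells (28.9%) and 90 of 165 DN cells (54.5%) had a Chil3 UMI, against 0.0328% of tubule cells. Median depths were 5770.5 and 5373 UMIs, and after thinning to 1500 UMIs the shares were 15.7% and 49.4%. By library, the level in this class ran from 0 to 1039 CPM in control, the highest again being the second male library at 6 weeks with 6 such cells, and from 856 to 2444 CPM in DN. In cells of classical monocyte type it was 378 CPM in control and 2020 CPM in DN. In those cells Ccr2 was 1081 and 1070 CPM, and Ly6c2 930 and 612 CPM. As Chil3 is in the list that assigned that type, these levels are a description.

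Cxcl10, an interferon-induced chemokine for activated T cells on chromosome 5 at 92346638 to 92348889, minus strand, was the gene called lower. Its control values were 0 CPM in 3 libraries and 67.6, 89.5, 365 and 817 CPM in the other 4, from 275 UMIs. In DN it was 0 CPM in 5 libraries and 5.57, 7.32 and 8.97 CPM in the other 3, from 6 UMIs. The log2 difference was -5.65 ± 0.97, with edgeR's adjusted p of 0.0272. This call rests on few cells: 8 control and 5 DN cells had a UMI, all of them other myeloid cells, and 3 control cells with 159, 76 and 18 UMIs held 92.0% of the control UMIs. In C1q macrophages Cxcl10 had 8 UMIs in control and 48 in DN, 47 of them in DN male 12 weeks replicate 1 (286 CPM), and in tubule cells it was 0 to 17.7 CPM in control and 0 to 11.6 CPM in DN. It was called in 15 of 22 alternative fits and lost, among others, under DESeq2 (adjusted p = 0.732) and without DN female 12 weeks replicate 2, DN male 6 weeks replicate 2, or DN male 12 weeks replicate 1 or 2 (edgeR's adjusted p = 0.238, 0.0754, 0.383 and 0.125). Without control female 12 weeks replicate 2, control male 6 weeks replicate 1 or control male 12 weeks replicate 1, which held most of its UMIs, it did not pass the filter on low counts and was not tested.

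**Figure D4:**
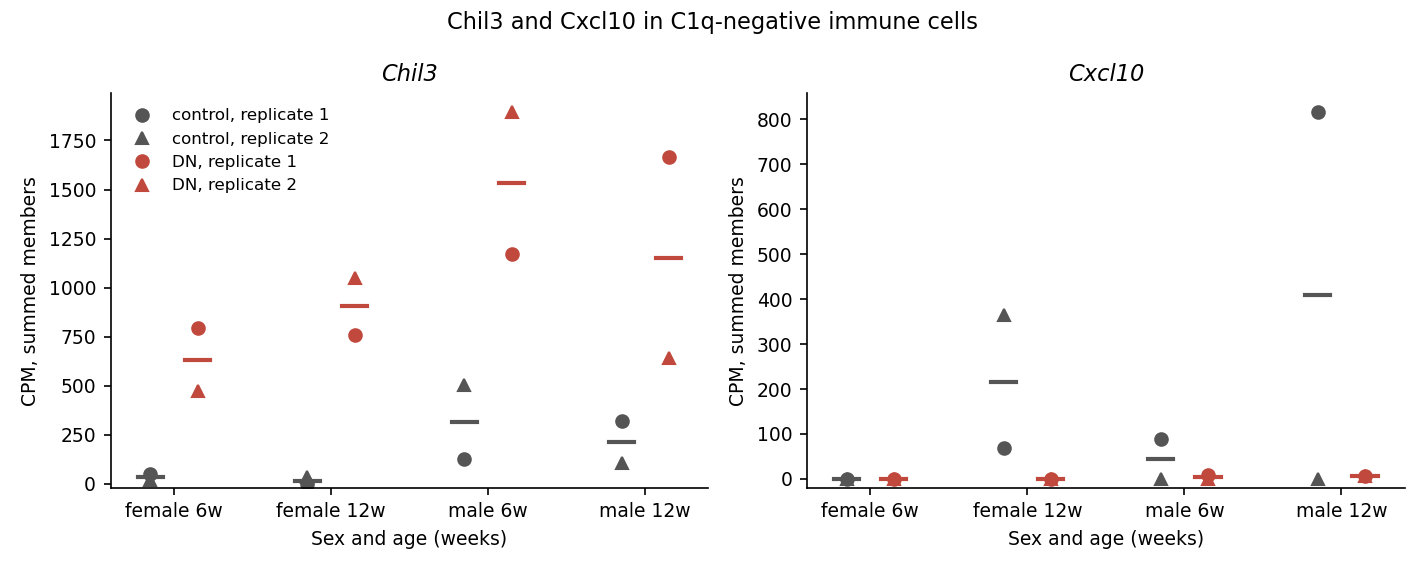
Level of Chil3 (left) and Cxcl10 (right) in CPM of the summed members (y axis) by sex and age (x axis, w for weeks), with 1 point per library, all 16 shown, control in grey and DN in red, circles for replicate 1, triangles for replicate 2 and bars for group means. Each DN point for Chil3 lies above both control points beside it, whereas Cxcl10 is at 67.6 to 817 CPM in 4 control libraries, at 0 in the other 4 and at most 8.97 CPM in DN.

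No further gene was called in members without the replicate block. The next by unadjusted p were Acsm2, a mitochondrial acyl-CoA synthetase gene of proximal tubule (log2 difference -1.94 ± 0.38, edgeR's adjusted p = 0.0539), Ear1, an eosinophil-associated ribonuclease gene (2.19 ± 0.43, adjusted p = 0.0539), and Gda, guanine deaminase (1.37 ± 0.32, adjusted p = 0.181). With the block all of these were called, at -1.92 ± 0.38 for Acsm2 (edgeR's adjusted p = 0.0128), 2.29 ± 0.42 for Ear1 (adjusted p = 0.00904) and 1.39 ± 0.24 for Gda (adjusted p = 0.00672), so that the log2 differences moved little and the errors of Gda and of Chil3 (3.01 ± 0.28) became smaller. Ear1 was 0, 9.60 and 38.3 CPM at the lowest, median and highest in control, and 37.8, 65.9 and 142 CPM in DN. Ear1 has close paralogues, so its reads may be divided among them.

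Gene groups showed no further calls without the block. Of 8 tested genes of the classical monocyte list, 1 was called higher (Chil3), 6 were positive and the median log2 difference was 0.71, beside -0.01 over all 3551 genes. All 12 tested T cell genes were negative with a median of -0.42, and 10 of 11 tested B cell receptor and immunoglobulin genes were negative with a median of -0.68, and none of either was called. For MHC class II, which presents antigen to CD4 T cells, 10 genes were tested, 0 called and 7 negative (median -0.36; Cd74 -0.35 ± 0.37, H2-Ab1 -0.37 ± 0.32). Of 16 interferon response genes, 0 were called and 12 were negative (median -0.29; Ifi27l2a -0.28 ± 0.24). Of 11 inflammasome and alarmin genes, 0 were called and 9 were positive (median 0.21; S100a6 0.61 ± 0.24, S100a4 0.82 ± 0.29). With the block, 3 of 8 classical monocyte genes were called higher, namely Chil3, Vcan (a matrix proteoglycan gene, 2.44 ± 0.45, edgeR's adjusted p = 0.00904) and Fn1 (1.19 ± 0.26, adjusted p = 0.0307). Of 21 interferon response genes 2 were called lower, Ifit1 (-2.53 ± 0.52, adjusted p = 0.0173) and Ifit3 (-2.02 ± 0.41, adjusted p = 0.0166), and of 12 inflammasome and alarmin genes 1 was called higher, S100a4 (0.83 ± 0.17, adjusted p = 0.0173). In that fit 0.263% of all genes were called higher and 0.281% lower. The block moved the list medians for interferon response to -0.47 and for MHC class II to -0.19. By age with the block, Ifit3 was called lower at 12 weeks (-2.76 ± 0.48, edgeR's adjusted p = 0.00281), where 0.176% of all genes were called lower. No interferon response gene was called at 6 weeks. The T cell, immunoglobulin and MHC class II lists had 0 called with the block as well in this fit over both ages. In the fit by age with the block, Il7r was called lower at 12 weeks (-1.63 ± 0.34, edgeR's adjusted p = 0.0225). This sum over all members varies with the share of T-like cells in a library. Among T-like cells of both ages, a UMI of Il7r was found in 55.7% of control and 70.0% of DN cells, the other direction. Ighm was called lower at 6 weeks (-1.53 ± 0.31, adjusted p = 0.0254), where 0.0878% of all genes were. At that age 80 Ighm UMIs were in B-like, 69 in other myeloid and 31 in T-like cells. The part of class makeup in the Il7r and Ighm calls was not tested. Lef1, a transcription factor of naive T cells, was called lower over both ages with the block (-1.56 ± 0.32, adjusted p = 0.0173).

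Genes of RNA quality, tubule and podocyte fell in the same fit and are named after their values were seen. Of 12 mitochondrial genes 4 were called lower with the block and 11 were negative, with a median log2 difference of -0.48 (mt-Nd4 -0.60 ± 0.12, edgeR's adjusted p = 0.0128). Malat1, a nuclear non-coding RNA, was at -0.55 ± 0.11 (adjusted p = 0.0114). Mitochondrial genes made up 4.04% to 8.23% of member UMIs in the 7 control libraries and 3.47% to 6.01% in the 8 DN libraries, with overlap. The tubule and epithelial genes Kap (-2.27 ± 0.32), Klk1 (-1.54 ± 0.27) and S100g (-0.96 ± 0.19) were also called lower, and the summed proximal tubule list was 333 to 3539 CPM in control and 241 to 2087 CPM in DN members. Podxl, a gene of the podocyte list, was called lower as well (-3.48 ± 0.79, edgeR's adjusted p = 0.0342). With the block at 6 weeks, Podxl and the smooth muscle gene Tagln were called lower (-5.60 ± 1.03 and -4.61 ± 0.89). Summed over members, the podocyte list reached 1061 CPM in a control and 207 CPM in a DN library. The mesangial and smooth muscle list reached 1428 and 114 CPM, and the endothelial list 153 and 1473 CPM. The part of RNA quality and of these kidney genes in the other calls was not tested.

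Lists for the diabetic setting and for handling of the tissue held no called gene with or without the block. In the list for glycolysis and glucose use 11 genes were tested and 0 called, with a median log2 difference of -0.01 (Gapdh 0.07 ± 0.22, Txnip -0.21 ± 0.24), Txnip being a glucose-induced inhibitor of glucose uptake. In the list for leptin, insulin and lipid 8 were tested and 0 called, with a median of 0.23 (Stat3, which signals for leptin and cytokines, 0.58 ± 0.30; Plin2, a lipid droplet coat protein, 0.73 ± 0.42). Of 22 immediate early and dissociation stress genes 0 were called, with a median of -0.16 (Fos -0.36 ± 0.35, Junb 0.06 ± 0.30). The 8 tested genes of NF-kB feedback had a median of 0.28 with 7 positive and 0 called (Nfkbia 0.29 ± 0.22).

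When the genotype effect was fitted for each age, 0 of 4247 genes were called at 6 weeks, with 126 at an unadjusted p under 0.05, 3 by DESeq2 and 9 of 5693 with the replicate block (0.158%; 0.0703% higher and 0.0878% lower). At 12 weeks 2 were called (0.0471%), Chil3 at 3.18 ± 0.58 and Cxcl10 at -6.28 ± 1.09, each with edgeR's adjusted p of 0.0421. The background was 0.0235% of genes in either single direction, and DESeq2 called 1 and the replicate block 19 of 5693 (0.158% higher and 0.176% lower, 0.334% in all). At 6 weeks Chil3 was at 2.83 ± 0.63 with an adjusted p of 0.318, and with the block at 2.83 ± 0.40 (edgeR's adjusted p = 0.000241). Without the block no gene differed in its genotype effect between the ages (0 of 4247 by edgeR, 89 unadjusted, 0 by DESeq2), and the 2 called with the replicate block (0.0351% of 5693), both with a higher effect at 12 weeks, were Lcn2 and Ptgs2, named after their values were seen. Lcn2 is in the neutrophil list, and DN male 12 weeks replicate 1 held 15 of the 40 neutrophil-like cells. The part of class makeup in its call was not tested. The calls at 12 weeks lay close to the threshold and were easily lost. Leaving out either control male library of that age left 1. Both calls stayed when DN male 12 weeks replicate 2 or control male 6 weeks replicate 2 was left out. Leaving out any of the other 11 left 0. Libraries of 6 weeks were among these 11, so the losses do not single out 1 library. In the 12-week libraries Chil3 was 0 to 321 CPM in control and 641 to 1664 CPM in DN members, without overlap. The share of all genes without overlap was not computed for these libraries, and over both ages the Chil3 ranges overlapped. Cxcl10 was 0 to 817 CPM and 0 to 7.32 CPM in the same libraries, with overlap.

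Between 12 and 6 weeks, with genotypes pooled, 1 of 3551 genes was called in members (0.0282%; 197 unadjusted, 10 by DESeq2). This was Top2a, the DNA topoisomerase of dividing cells (chromosome 11, 98992943 to 99024189, minus strand). It was 25.8 to 341 CPM in the 7 libraries of 6 weeks and 0 to 138 CPM in the 8 libraries of 12 weeks, so the ranges overlapped, and it fell by 2.95 ± 0.52 on the log2 scale (edgeR's adjusted p = 0.0456). The call held in 9 of 25 alternative fits and was lost on leaving out any single library of 15 except control male 12 weeks replicate 2, DN female 6 weeks replicate 1, DN female 12 weeks replicate 1 or DN male 6 weeks replicate 2. Mki67, another proliferation gene, was at -3.02 ± 0.57 with an adjusted p of 0.0595. All 9 tested proliferation genes were negative, 1 called, with a median of -1.11 beside 0.00 over all genes.

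Dividing cells were few and mostly T-like. Of 109 Top2a UMIs, 77 were in 11 of 65 T-like cells at 6 weeks and 7 in 4 of 84 T-like cells at 12 weeks, while 13 were in 1 NK-like cell at 6 weeks. A single T-like cell held 35 of them. Other myeloid cells held 2 Top2a UMIs in 2 of 97 cells at 6 weeks and 9 in 5 of 158 cells at 12 weeks (tubule 1.04%). For MHC class II 9 of 10 genes were positive at 12 weeks, with a median of 1.11 and 0 called (H2-Ab1 1.40 ± 0.33, edgeR's adjusted p = 0.193; Cd74 1.09 ± 0.37, adjusted p = 0.539). The 5 tested cytotoxic granule genes were all negative with a median of -0.95 and 0 called (Gzma -2.17 ± 0.57, adjusted p = 0.250). Both lists were read from sums over all members, so the class makeup of a library enters their values.

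Myeloid cells (other myeloid and neutrophil-like) were also fitted alone, in the 4 control and 6 DN libraries with at least 10 such cells. Among females these were a control library at 6 weeks and DN libraries at 12 weeks, so neither age had both genotypes. As the fit has terms for sex and age, its genotype differences rested on the male libraries only. The makeup of these myeloid cells still varied, with neutrophil-like cells forming 6.06% to 41.7% of them in control and 0% to 25.4% in DN libraries. Of 4249 genes, 2 were called (0.0471%; 116 unadjusted, 1 by DESeq2, 4 with the replicate block, or 0.0941%), again Chil3 and Cxcl10, 1 in each direction (0.0235% of genes each). Chil3 was 61.7, 188, 190 and 389 CPM in control and 849 to 2326 CPM in DN with a median of 1539, so the fitted groups did not overlap. The control library with the highest Chil3, male 6 weeks replicate 2, had too few myeloid cells to be fitted, and its 1039 CPM in other myeloid cells lay above DN libraries at 856 and 900 CPM. In all, 0.683% of the genes tested were higher and 0.4% lower in DN without overlap. The log2 difference was 2.57 ± 0.44 (edgeR's adjusted p = 0.0314). This call was lost on leaving out 1 library in 5 of 10 cases (control male 6 weeks replicate 1, control male 12 weeks replicate 2, DN male 6 weeks replicate 1 or 2, DN male 12 weeks replicate 1), where its adjusted p was 0.0528 to 0.467. In a fit added after seeing the data, with neutrophil-like cells left out and at least 5 cells per library, it was 2.62 (adjusted p = 0.00117).

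Among myeloid cells Cxcl10 was 0 CPM in 2 control libraries and 989 CPM at the highest, and 0 to 12.8 CPM in DN (log2 difference -5.52 ± 0.94, edgeR's adjusted p = 0.0314). Without control male 12 weeks replicate 1, the highest library, it was -2.52 with an adjusted p of 1. The next genes were not called without the block. Of these Ccl17, a chemokine of dendritic cells, had 132 UMIs in 2 of 6 DN libraries and 0 in control (edgeR's adjusted p = 0.0208 with the block), and Pltp, phospholipid transfer protein, had a log2 difference of -1.48 ± 0.42. The remaining gene called with the block was Kap, a gene of proximal tubule, which was lower in DN (-2.79 ± 0.47, edgeR's adjusted p = 0.0495).

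No MHC class II or interferon response gene was called in myeloid cells, with or without the block, though most were negative. Of 9 MHC class II genes 7 were negative with a median of -0.68 (Cd74 -0.94 ± 0.39, H2-Ab1 -0.78 ± 0.36), and of 18 interferon response genes 17 were negative with a median of -0.52 (Ifi27l2a -0.22 ± 0.35, Irf7 -0.56 ± 0.57), beside 0.00 over all 4249 genes. With the block the medians were smaller, at -0.44 for MHC class II with 6 of 9 negative and -0.26 for interferon response with 14 of 18 negative, beside 0.01 over all genes. The 12 tested MHC class I genes had a median of -0.05 without and 0.07 with the block, and 0 were called. H2-Ab1 was 3564, 4879 and 6511 CPM at the lowest, median and highest in control and 1287, 3657 and 7035 CPM in DN, which overlapped. A UMI of H2-Ab1 was found in 74.4% of control and 44.8% of DN other myeloid cells (68.5% and 42.4% after thinning to 1500 UMIs; tubule 7.01%). The share of dendritic cell type among other myeloid cells was 6.67% in control and 10.3% in DN, and the part of makeup in these values was not tested.

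T-like and NK-like cells were fitted together in the 5 control and 4 DN libraries with at least 10 of them (11 to 23 cells each), none of them shallow. Control female 6 weeks replicate 2 had no DN library of its sex and age, so it did not inform the fitted genotype difference. Females entered that difference only at 12 weeks, with replicate 2 of each genotype. The age of 6 weeks entered it only through male replicate 1 of each genotype. Of 1185 genes, 9 were called (0.759%; 73 unadjusted, 2 by DESeq2, 7 with the replicate block, or 0.591%), 4 higher (0.338%) and 5 lower (0.422%). The 4 higher genes were S100a4, S100a6, Vim and Lgals1, which are known as genes of effector and memory T cells. Without the exclusion of barcodes with UMIs of other lineages 0 of 2813 genes were called (99 unadjusted), and without control female 6 weeks replicate 2 there were 2.

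S100a4, a calcium-binding protein of motile cells on chromosome 3 at 90603771 to 90606045, plus strand, was 86.4, 101, 146, 175 and 395 CPM in control and 545, 708, 1132 and 1447 CPM in DN. The groups did not overlap, as for 0.675% of the genes tested in that direction and 0.506% in the other. The log2 difference was 2.26 ± 0.35 (edgeR's adjusted p = 9.72e-05), and it was called in 18 of 19 alternative fits. S100a6, its neighbour on chromosome 3, was 322 to 907 CPM in control and 1417 to 2343 CPM in DN, also without overlap in these fitted libraries (log2 difference 1.72 ± 0.29, adjusted p = 0.000299, 17 of 19). In both genes control male 12 weeks replicate 2 was the highest control library. Tubule cells of the same libraries had 4.72 to 31.3 CPM of S100a4.

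By cell, 14 of 79 control T-like cells (17.7%) and 32 of 70 DN T-like cells (45.7%) had a S100a4 UMI, at median depths of 3542 and 3785.5 UMIs (tubule 3.47%). After thinning to 1500 UMIs the shares were 13.5% and 35.7%. S100a4 was found in 2 of 17 Cd4 cells in control and 9 of 19 in DN, and in 7 of 31 and 14 of 34 Cd8 cells, so that both lineages had the higher share in DN. For S100a6 the shares were 31.6% and 57.1% of T-like cells (29.7% and 51.4% thinned; tubule 15.98%). In libraries with too few T-like cells to be fitted, S100a4 was 0 to 196 CPM in 3 control and 219 to 1026 CPM in 4 DN libraries, the 219 being 1 UMI in 1 cell. S100a6 overlapped there, with 0, 783 and 1205 CPM in control and 219, 1246, 1764 and 3078 CPM in DN.

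Vim, the intermediate filament vimentin, was 279 to 1120 CPM in control and 763 to 1223 CPM in DN (log2 difference 1.17 ± 0.29, edgeR's adjusted p = 0.0341). Lgals1, galectin-1, was 302 to 1165 CPM in control and 579 to 1569 CPM in DN (1.16 ± 0.30, adjusted p = 0.0454). For Vim control female 6 weeks replicate 2, and for Lgals1 that library and both first male controls, lay within the DN range, and the calls held in only 6 and 3 of 19 alternative fits. In tubule cells of the same libraries Lgals1 was 29.8 to 59.9 CPM in control and 76.0 to 109 CPM in DN, also without overlap, and Vim 71.1 to 133 and 32.6 to 141 CPM. The share of all genes without overlap was not computed for tubule cells. A UMI of Lgals1 was found in 30.2% and of Vim in 9.57% of tubule cells. The part of tubule RNA in these calls beyond the fit with the tubule sum was not tested. With the replicate block Lgals1 was not called (adjusted p = 0.119). Transcription factors of naive T cells were not called. Lef1 was 326 to 519 CPM in control and 204 to 421 CPM in DN (-0.76 ± 0.31, adjusted p = 0.509), and Satb1 291 to 488 and 193 to 265 CPM (-0.78 ± 0.31, adjusted p = 0.509). Of 13 naive and homing genes 9 were negative with a median of -0.31, and 0 were called.

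**Figure D5:**
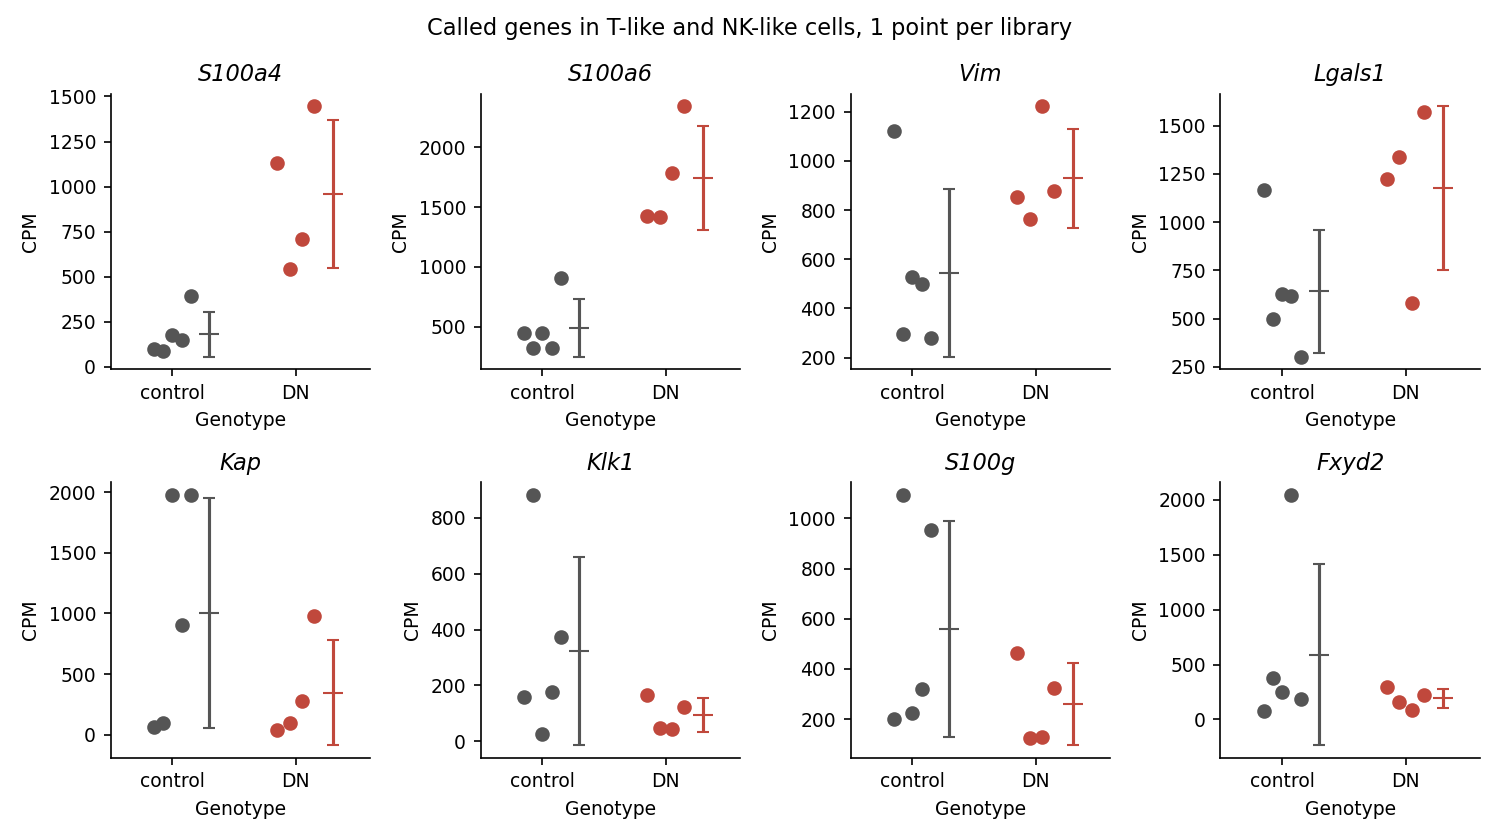
Level in CPM (y axis, each panel from its own range) of 8 of the 9 called genes in summed T-like and NK-like cells of 5 control and 4 DN libraries (x axis), with 1 point per library and mean ± SD at the side. S100a4 and S100a6 do not overlap between genotypes, Vim and Lgals1 do, and the lower row shows the tubule and epithelial genes Kap, Klk1, S100g and Fxyd2, whose control spread is wide.

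Of the 5 genes called lower, 4 belong to tubule epithelium: Kap, an androgen-regulated protein of proximal tubule, Klk1, tissue kallikrein, S100g, a calcium-binding protein of distal tubule, and Fxyd2, a subunit of the sodium pump. Kap was 67.2 to 1980 CPM in control and 37.1 to 978 CPM in DN T-like and NK-like cells (log2 difference -2.04 ± 0.41, edgeR's adjusted p = 0.00253), with wide overlap. With the replicate block Fxyd2 was not called (adjusted p = 0.341). In the tubule cells of the same libraries Kap was 575 to 20417 CPM in control and 369 to 13238 CPM in DN. The summed proximal tubule list was 269 to 3835 CPM in control and 482.9 to 1406 CPM in DN T-like and NK-like cells. With that sum as a term in the fit, added after seeing the data, 1 gene was called, S100a4 (3.45 ± 0.60, adjusted p = 1.23e-05). S100a6 was then at 1.89 ± 0.53 (edgeR's adjusted p = 0.0960), Lgals1 at 2.10 ± 0.55 (adjusted p = 0.0759) and Vim at 1.26 ± 0.58 (adjusted p = 1), so that the differences were no smaller but their errors were larger. Kap and Fxyd2 are in the list that makes up this sum, so their values in that fit carry no information of their own.

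The remaining gene called lower was Fcer1g, a signalling chain of NK and myeloid cells, with 45 UMIs in 2 of the fitted control libraries and 0 in the fitted DN libraries (edgeR's adjusted p = 0.00175). The 3 NK-like cells of the fitted libraries were in those 2, and among T-like cells 1 control and 1 DN cell had a Fcer1g UMI. With the NK-like cells left out, a fit added after seeing the data, 13 of 1192 genes were called, 6 higher and 7 lower. S100a4 was then at 2.25 (adjusted p = 5.3e-05), S100a6 at 1.81, Vim at 1.62 and Lgals1 at 1.72.

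The higher S100a4 and S100a6 levels were not shown to be particular to T-like cells. S100a4 was at 0.69 ± 0.46 on the log2 scale in myeloid cells and 0.82 ± 0.29 in all members, neither called without the block. With the block it was called in all members (0.83 ± 0.17, edgeR's adjusted p = 0.0173) but not in myeloid cells. The sum over all members contains the T-like cells and varies with class makeup, so it does not show the level in other classes. In C1q macrophages, which were not fitted, S100a4 was 0 to 163 CPM in 6 control libraries (9 UMIs) and 176 to 986 CPM in 8 DN libraries (198 UMIs), without overlap. Those control libraries held only 1 to 14 such macrophages each and the DN libraries 3 to 27. The share of all genes without overlap was not computed for these macrophages. S100a6 was 0 to 305 CPM (19 UMIs) and 119 to 1170 CPM (259 UMIs) in the same macrophages, with overlap. The inflammasome and alarmin list in T-like and NK-like cells had 5 genes tested, 2 called higher (S100a4 and S100a6, where 0.338% of all genes were called higher) and a median of 0.69, beside 0.00 over all 1185 genes. The 5 tested cytotoxic granule genes had a median of -0.63 and 0 called (Gzma -1.38 ± 0.49, adjusted p = 0.346). The NK-like cells in this fit were all in control libraries, and their part in these values was not tested. Among T-like cells alone, a UMI of Gzma was found in 15.2% of control and 20.0% of DN cells. Among those with Cd8 it was found in 35.5% and 29.4%. The 13 T cell marker genes were balanced, 7 positive and 6 negative, with a median of 0.01 and 0 called. Of 12 MHC class I genes 10 were positive with a median of 0.17 (B2m 0.22 ± 0.25) and 0 were called.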

How the data were processed

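Single-cell suspensions from both kidneys of 16 mice, 1 library per mouse, were sequenced with 10x Genomics 3′ kits. The study's methods name more than 1 kit version, and the labels do not say which library used which. The authors made UMI counts per gene and barcode with Cell Ranger 3.0.2 on mm10 (3.0.0 reference, per the study's methods), and the deposited counts of 31053 features were used as they were, with no normalization. Total UMIs per library are given above, and intervals cover counting error only. Libraries are replicates; nothing beyond the labels ties mice to litters or days.

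The members, classes and gene lists were chosen with earlier results of these data known. Member UMIs were summed per library and tested with edgeR 4.0.16 (R 4.3.3; TMM, filterByExpr with a minimum count of 10, libraries with at least 10 cells, terms for sex and age), with Benjamini-Hochberg adjustment over all genes tested at 0.05. Genes of the rule were left out of counts of calls. DESeq2 1.42.0 was an alternative. Class shares were compared by exact two-sided permutation within strata. Doublets were not called: the rule excluded barcodes with a UMI of Cubn, Epcam, Pecam1 or Pdgfrb. It held no podocyte gene. Kidney contamination was read from tubule cells (a Cubn or Epcam UMI, no Ptprc). Thinned cells were drawn to 1000 UMIs for shares and 1500 UMIs for single genes. Scripts were tested on simulated data.

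Same-numbered libraries of the 2 genotypes deviated together from their group means in 4 of 4 strata of sex and age (correlation 0.193 to 0.340 over 3551 genes). The replicate number was therefore also fitted as a block. This pairing comes from the data, as the labels do not say what the number marks. In the female strata replicate 1 was also the shallow library with the other barcode list, so the number and that difference cannot be told apart there. Named genes were, per comparison, up to 10 called genes in each direction, or the 5 with the smallest p where fewer than 5 were called, the leading genes of each class, markers, and called or most abundant list genes. Genes just outside these, such as single Cxcl10 cells, Chil4 and Jchain cells, were looked at after their values were seen. Coordinates are GRCm38 from GENCODE M21, which held 31011 of the 31053 features.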

Additional observations from a re-analysis of the deposited data

Results flagged for a closer look

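Sets of 4 to 8 libraries were examined for a library far from the others. The limit is one that about 1 in 20 sets of normally distributed values exceed. Shares and levels with many zeros depart from that, so the count cannot be compared with chance. Of 38 sets examined, 8 held such a library. For class shares these were T-like cells in control, with 0.771% in the second female library at 12 weeks (others 0.0439% to 0.365%), NK-like cells in DN, with 0.0444% in the first female library at 6 weeks (others 0%, the value being 1 cell), B-like cells in DN, with 0.144% in the second male library at 12 weeks (others up to 0.0522%), and neutrophil-like cells in DN, with 0.392% in the first male library at 12 weeks (others up to 0.0933%).

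For genes, control male 12 weeks replicate 2 stood above the other control libraries in T-like and NK-like cells for S100a4 (395 CPM, others 86.4 to 175) and S100a6 (907 CPM, others 322 to 451), each still below the 4 fitted DN libraries. Control male 12 weeks replicate 1 stood apart for Fxyd2 in the same cells (2049 CPM, others 78.4 to 375) and for Cxcl10 in myeloid cells (989 CPM, others 0 to 133).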

How the results depend on the processing

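Among results that answer a comparison, 201 of 246 values under other settings kept their direction or count (counts within 1.5 times). For class shares, the T-like difference between DN and control, in percentage points, turned to 0.0100 with up to 50% mitochondrial UMIs and to 0.00213 after thinning to 1000 UMIs, and the NK-like difference to 0.00392 after thinning. In the 12 deep libraries female minus male was 0.159 for T-like and 0.0107 for B-like cells, and 12 minus 6 weeks was 0.000888 for NK-like cells; without exclusion of other lineages the NK-like differences for sex and age were 0.0157 and 0.00343. As percent of members in the deep libraries, DN minus control was -1.17 for NK-like and 0.884 for neutrophil-like cells. None of these differences passed its test.

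Leaving out each library in turn, the DN difference ranged from -0.0579 to 0.0460 for T-like, -0.00931 to 0.000613 for NK-like, -0.0357 to -0.0104 for B-like, -0.00462 to 0.0523 for neutrophil-like and 0.242 to 0.370 for other myeloid cells, and for all members from 0.175 to 0.386. The sex difference ranged from -0.0900 to 0.0152, -0.00931 to 0.000613, -0.0319 to -0.00901 and -0.0521 to 0.00482 in the first 4 classes, and the age difference from 0.00422 to 0.109, -0.00987 to 4.9e-05, -0.00198 to 0.0233 and -0.0203 to 0.0365, and for other myeloid cells from 0.136 to 0.270. As percent of members the DN difference ranged from -0.878 to 0.728 for NK-like and -2.44 to 0.934 for neutrophil-like cells, and from -16.9 to -8.38 for T-like cells.

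Counts of called genes, main count first, were as follows. In members for DN (2): DESeq2 6, no low-count filter 69, at least 5 cells 1, barcode list as a term 4, replicate block 31, makeup as terms 0, and 1 to 4 with a library left out. For age (1): DESeq2 10, no filter 49, at least 5 cells 0, at least 20 cells 2, no exclusion of other lineages 0, makeup 0, left out 0 to 2. At 6 weeks (0): DESeq2 3, no filter 34, block 9, makeup 2, left out 0 to 1. At 12 weeks (2): DESeq2 1, no filter 28, at least 5 cells 0, no exclusion 1, block 19, left out 0 to 2. For the difference between ages (0): no filter 11, block 2, makeup 1. In T-like and NK-like cells (9): DESeq2 2, at least 5 cells 2, no exclusion 0, tubule list as a term 1, left out 2 to 13. In myeloid cells (2): DESeq2 1, no filter 12, at least 5 cells 1, no exclusion 1, barcode list 1, block 4, neutrophil-like cells left out together with a minimum of 5 cells 1, left out 0 to 2. The cause of these changes was not tested. The replicate block changed no other call on shares or counts by over 1.5 times.

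Among single genes, Tpm1 at 6 weeks reversed to 0.89 without exclusion of other lineages, and in T-like and NK-like cells Fxyd2 to 0.49 in that setting and to 0.30 with the tubule term, where Kap, like Fxyd2 a gene of that sum, was at 0.000857 and the fitted value of Fcer1g, at 0 in DN, was 6.78. Fits with at least 20 cells in the T-like and NK-like or myeloid classes, the barcode list in T-like and NK-like cells, and all B-like fits were not run for want of libraries. The gene fits rest on 10 to 75 members per library, and the T-like and NK-like fit on 11 to 23 cells.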

Other observations

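Mast cells and platelets were hardly present. Of the mast cell genes Cpa3, Mcpt4 and Tpsb2 had no UMI in any member, and Cma1, a chymase, had 25 UMIs, all in 2 of the 4 NK-like cells. Platelet genes were near absent, with Ppbp and Gp9 at 0 UMIs and Pf4 at 1 UMI in members, whereas Pf4 was found in 44.9% of C1q macrophages. Siglech, a marker of plasmacytoid dendritic cells, was found in 2.35% of other myeloid cells.

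Ighm, the IgM heavy chain, was found in 34.9% of T-like and 43.5% of other myeloid cells, besides 89.3% of B-like cells, but in 0.0892% of tubule cells and 68.5% of C1q macrophages. Igkc was found in 2.01% of T-like and 1.18% of other myeloid cells. The low level of Ighm outside B-like cells, 93 UMIs in 52 T-like and 224 in 111 other myeloid cells, is given as a value only.

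Mgl2, a lectin of dendritic cells and macrophages, had 6 UMIs in control and 160 in DN members, and Mmp12, a macrophage elastase, 8 and 73. Neither was called at 12 weeks without the replicate block (edgeR's adjusted p = 0.108 and 0.110), and both were called with it, Mgl2 at a log2 difference of 6.00 ± 0.78 (adjusted p = 6.85e-05) and Mmp12 at 4.95 ± 0.91 (adjusted p = 0.00597), where 0.158% of all genes were called higher. Over both ages Mgl2 was at 3.60 ± 0.68 with the block (adjusted p = 0.0114). Few cells carried it, as a UMI was found in 3 of 90 control and 11 of 165 DN other myeloid cells. Ptpro, which the podocyte list contains, was found in 54.1% of other myeloid cells and 40.9% of C1q macrophages while Nphs1 was found in 0.784%.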
